A study of Mus musculus with 7 samples.

Results

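The pancreatic lymph node (PLN) was set against the mesenteric lymph node (MLN) of the same strain on 4 of the 7 arrays of the series, those whose titles name these nodes. The ratio of PLN to MLN was followed over all genes of the array. The strains were BALB/c, FVB, NOD and NOD.B10, with 1 array each, and the strains stand as the replicates. Each channel held RNA of nodes pooled from 5 female mice aged 12 weeks, and the labels name no treatment and no transgene. PLN RNA carried the red dye Cy5 and MLN RNA the green dye Cy3 on every array, so a dye effect of a probe is part of each ratio. The NOD strain is prone to autoimmune diabetes, and NOD.B10 carries another major histocompatibility complex (MHC) on the NOD background. The title and source name of that array read NOD.B10 and its strain entry reads NOD, and the title was used here. The other 3 arrays set PLN against the inguinal lymph node (ILN) of FVB, NOD and NOD.B10. They share PLN as numerator with the MLN comparison and are quoted beside some genes. All values are log2 ratios of PLN over MLN unless said otherwise, so that 0 is an equal signal and 1 a 2-fold higher signal in PLN, and values of the 4 arrays are given in the order BALB/c, FVB, NOD and NOD.B10.

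A lymph node collects lymph from the organ it drains, with the antigens and cells that the lymph carries. The PLN drains the pancreas and the MLN the gut. Naive lymphocytes enter from blood through high endothelial venules that display sulphated sugars in peripheral nodes and the addressin Madcam1 in mucosal ones. They settle in zones kept by fibroblastic reticular cells, which secrete the chemokines Ccl19, Ccl21 and Cxcl13, and they leave through lymphatic sinuses. In the node of the gut, cells that make retinoic acid from vitamin A direct lymphocytes back to the intestine. In pooled tissue, fewer cells of a type and less RNA per cell cannot be told apart.

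Of 14 genes that mark a lymph node (B and T cell receptors, Ptprc, homing receptors and stromal chemokines), 12 were measured, and 11 of these were well above background in both nodes on all 4 arrays. Their median log2 ratio was 0.042. Spot signals had medians of 68.0 to 105 intensity units for PLN and of 86.1 to 142 for MLN. PLN signal stood well above background at 46.9% to 58.9% of probes and MLN signal at 50.7% to 83.1%. The log2 ratios had an SD over genes of 0.17 on the BALB/c array, 0.18 on FVB, 0.28 on NOD and 0.31 on NOD.B10. BALB/c and NOD were read on 1 scanner and FVB and NOD.B10 on another. With 1 pool per strain and node, p-values measure the spread between pools of different strains, and the number of arrays limits the precision.

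At the threshold of 0.05 on limma's adjusted p, 0 of 29712 genes and unnamed probes (0.0%) were called for PLN over MLN, and the smallest such p was 0.0823. Before adjustment, 2708 genes higher in PLN (9.11%) and 1905 lower (6.41%), 4613 in all, had a p under 0.05, against 1486 for 0.05 of the genes tested. Of 29428 genes measured on all 4 arrays, 4435 were above 0 on every array (15.1%) and 4458 below 0 on every array (15.1%). These shares are the background for each count of list members below. Differences of 2-fold or more on every array were found for 3 genes higher in PLN (0.0102%), namely Hba-a1, Hbb-bt and the unnamed probe A_52_P208681, and for 0 lower (0.0%). At 1.25-fold or more on every array there were 59 higher and 16 lower genes among the 29428. Of the 16 lower genes 8 had a saturated PLN spot on 1 or more arrays. Since no gene passed the test, directions below are those of the measured values. Leaving out the BALB/c array gave 46 called genes, 44 higher and 2 lower, and leaving out the FVB array of the ILN gave 9. On the arrays of the scanner that read FVB and NOD.B10, 20 were called. With array weights the count was 191, with no background correction 37 and with a stricter filter on dim probes 1.

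Bright genes depended on the scale. Genes were put into 4 equal bins by level. The brightest bin had a median log2 ratio of 0.016 after loess and of 0.90 when each array was centred on its median in place of loess, and the dimmest bin then had -0.21. The bin next below the brightest had 0.028 after loess and 0.33 with median centring. A gene of these bins below 0 after loess could therefore stand above 0 with median centring, also where it was far below, as for Rplp1. Saturation touched the brightest spots. The PLN spot was saturated on all 4 arrays for 28 genes, of which 19 had a mean ratio below 0. Of the 10 named genes with the lowest mean ratio among those of 1 sign on every array, 7 were of this kind, all ribosomal protein genes (Rplp0, Rplp1, Rplp2, Rps12, Rps18, Rps23 and Rps27). Rplp1, a protein of the ribosomal stalk, measured -1.61, -0.35, -1.15 and -1.45. Its MLN spot was saturated too on the FVB array, where the ratio was nearest to 0, so no fold is given for these genes.

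Glandular kallikreins, serine proteases of exocrine glands, were among the highest genes outside the list of pancreatic enzymes and other acinar genes. Of 13 measured members 8 were above 0 on all 4 arrays and 1 below, and the list median was 0.42. Other processing gave a larger median, 1.01 with normexp without an offset, 1.71 in Agilent's LogRatio, 1.68 in the deposited values and 2.66 under a stricter filter on dim probes. Klk1b5 measured 0.38, 4.49, 5.63 and 4.99, a mean of 3.87 ± 2.37 (SD, n = 4) (adjusted p = 0.131). It was lowest in BALB/c and above 4 in the other strains. The related genes Klk1b3, Klk1b8, Klk1b26 and Klk1b4 had means of 3.20, 2.66, 2.64 and 2.46. Each of these 4 was lowest in BALB/c, at 0.41 to 0.54, and highest in NOD, at 4.46 to 5.08. Kallikrein genes are near-identical copies, so a probe can also bind the RNA of its relatives. On the same arrays the median of 40 measured acinar genes was 0.11, 2.85, 4.67 and 3.81, lowest in BALB/c too. The median log2 level of these acinar genes in the BALB/c PLN was 12.59, and the cause of their low ratio there was not tested. Only 22 of the 40 had no saturated spot. PLN over ILN values of Klk1b5 and Klk1b3 were 3.57 and 2.89 (n = 3).

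**Figure D1:**
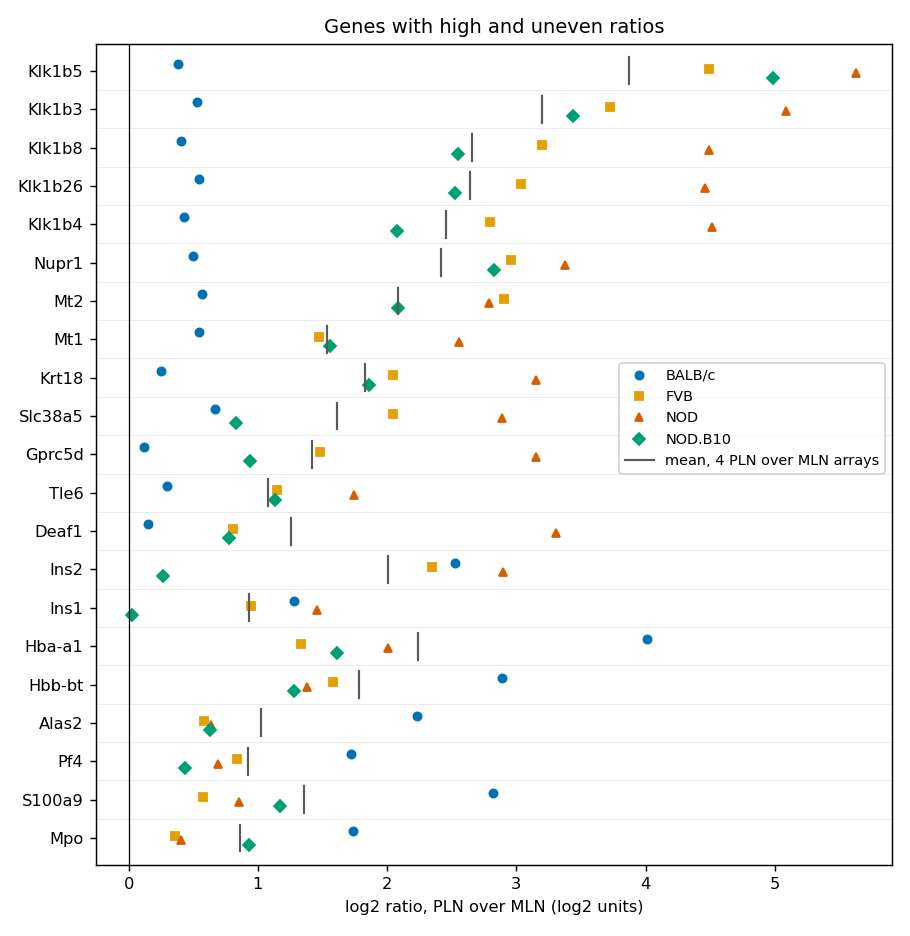
Log2 ratio of PLN over MLN (x axis, log2 units) of 21 genes (y axis) in 4 strains, 1 array each, with the mean as a grey bar. Kallikreins, Nupr1, metallothioneins and Krt18 are lowest in BALB/c, Ins2 and Ins1 are low in NOD.B10 alone, and haemoglobin, Pf4 and neutrophil genes are highest in BALB/c.

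Other genes that encode no digestive enzyme were lowest in BALB/c too. Nupr1, a stress-induced nuclear protein of the exocrine pancreas, measured 0.50, 2.96, 3.38 and 2.83, and its mean was 2.42 ± 1.30 (SD, n = 4) (adjusted p = 0.115). Its log2 level in MLN was 12.13, 9.71, 9.28 and 8.69, and in PLN 12.63, 12.67, 12.66 and 11.52. The BALB/c MLN pool thus held a level of Nupr1 near that of PLN, while the other MLN pools lay well below. The metallothioneins Mt2 and Mt1, which bind zinc and copper, measured 0.56, 2.91, 2.79 and 2.09 and 0.55, 1.48, 2.56 and 1.56. Both were above 0 on 4 of 4 arrays and lowest in BALB/c (adjusted p = 0.125 and 0.117). Krt18 and Krt8, which pair in the filaments of simple epithelium, had means of 1.83 ± 1.2 (SD, n = 4) and 1.11 ± 0.83 (SD, n = 4), with BALB/c at 0.25 and 0.17. Spp1, which encodes osteopontin of ducts and macrophages, measured 0.37, 1.06, 2.27 and 0.84. The amino acid transporter Slc38a5 measured 0.67, 2.05, 2.89 and 0.83 and Hamp2, a relative of the iron hormone hepcidin, 0.67, 1.37, 2.17 and 1.1. NOD was the highest strain for these genes except Mt2, which was highest in FVB.

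Of 53 genes and probes at least 2-fold higher in PLN of FVB, NOD and NOD.B10, 30 were on the acinar list, 5 were kallikreins outside it and 8 had no gene name. In BALB/c only 3 of the 53 reached 2-fold. Left were the haemoglobin genes, Nupr1, Mt1, Mt2, Krt18, Hamp2, Tle6, Amy1 and 2210010C04Rik. Tle6, a corepressor relative, measured 0.29, 1.15, 1.75 and 1.13. Amy1, an amylase gene outside the list, measured -1.52, 3.09, 4.82 and 5.63, below 0 in BALB/c, with its PLN spot saturated on all 4 arrays and a near-identical relative in the pancreatic amylase, so its level is uncertain. Without the BALB/c array 20 genes and unnamed probes outside the acinar list were called, 8 of them without a gene name. Acinar genes that the list does not hold may be among these 20. Klk1b5, Klk1b3, Klk1b8, Nupr1, Krt18 and Tle6 were among the 20. Less known names among them were Tdh, a threonine dehydrogenase (0.30, 0.57, 0.81 and 0.77), Pacsin3, a membrane-bending protein (0.20, 0.63, 1.0 and 0.54), and Qdpr, which regenerates a cofactor of amino acid hydroxylases (0.17, 0.38, 0.54 and 0.58). The splicing factor Mbnl1 was called on the lower side. It had no BALB/c value, measured -0.54, -0.58 and -0.61 in the other strains, and had a mean above 0 with median centring. Mt1, Slc38a5, Hamp2, Tle6, Tdh, Pacsin3, Qdpr and Mbnl1 were chosen after their values were seen, as were Alas2, Pf4, Isg15 and Ifit1 below.

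Deaf1, a transcription factor that controls tissue antigen genes in nodes, measured 0.15, 0.81, 3.31 and 0.77, with a mean of 1.26 ± 1.40 (SD, n = 4) (adjusted p = 0.255). Only the NOD array lay above 1, and BALB/c was lowest, as for the kallikreins. Gprc5d, an orphan receptor of plasma cells and keratinising tissue, measured 0.12, 1.48, 3.15 and 0.94, with its MLN spot well above background on 3 arrays. Aire, which drives tissue antigens in the thymus, measured 0.24, 0.052, 0.036 and 0.082. Ins2 and Ins1, the insulin genes, did not have this order. Ins2 measured 2.53, 2.35, 2.90 and 0.26 and Ins1 1.28, 0.95, 1.46 and 0.029, so that 3 strains lay apart from NOD.B10 (adjusted p = 0.169 and 0.187). Of 24 measured islet genes 6 were above 0 on all 4 arrays and 2 below, and the list median, 0.067, turned to -0.030 with median centring and was 0.32 in the deposited values, 0.35 in Agilent's LogRatio and 0.20 with normexp without an offset. Chgb, a granule protein of endocrine cells, measured 0.13, 0.13, 0.25 and 0.25. The PLN spot of Ins1 and the MLN spot of Chgb were well above background on 3 arrays.

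Red cell genes followed another order, with BALB/c on top. Of 8 measured erythroid genes 4 were above 0 on all 4 arrays and 0 below, 7 were highest in BALB/c, and the list median was 1.60, 0.52, 0.39 and 0.56. Hba-a1 measured 4.01, 1.33, 2.01 and 1.62 and Hbb-bt, with a saturated PLN spot on 1 array, 2.89, 1.58, 1.38 and 1.28, both chains of haemoglobin (adjusted p = 0.117 and 0.108). Every array was above 1, and BALB/c stood apart. Haemoglobin genes are near-identical copies that probes may not separate. Alas2, which starts haem synthesis in red cell precursors, measured 2.23, 0.59, 0.64 and 0.63, and Bpgm, a red cell enzyme that tunes oxygen release, 0.96, 0.50, 0.87 and 0.49. Pf4 of platelets measured 1.72, 0.84, 0.69 and 0.44. Beside ILN the PLN pools showed no such height, with 0.044 for Hba-a1 and 0.032 for Alas2 (n = 3, adjusted p for the difference of the MLN and ILN comparisons = 0.418 and 0.719).

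Neutrophil genes shared that height in BALB/c. Of 14 measured, 7 were above 0 on every array and 0 below, and 10 were highest in BALB/c. S100a9, a subunit of calprotectin, measured 2.82, 0.57, 0.85 and 1.17, the myeloperoxidase gene Mpo 1.74, 0.36, 0.40 and 0.93 and the antimicrobial peptide gene Camp 1.84, 0.085, 0.51 and 0.44. All 3 were above 0 in every strain, with adjusted p of 0.246, 0.229 and 0.268. Whether blood left in the pools accounts for the red cell, platelet and neutrophil values was not tested. Of 14 genes of mast cells and eosinophils 5 were above 0 on every array and 1 below. Kit, the receptor of stem cell factor, measured 0.23, 0.22, 0.18 and 0.30, and the proteases Cma1 and Mcpt4 0.083, 0.16, 0.73 and 0.88 and 0.077, 0.23, 0.41 and 0.36.

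A second set of genes had 1 sign in all 4 strains and the lowest p outside the acinar list, 10 in each direction. A low p favours a small spread between strains, so the likeness of their ratios is part of the choice. Ccn2, a matricellular protein induced by TGF-beta, measured 0.60, 0.54, 0.53 and 0.67, with a mean of 0.59 ± 0.063 (SD, n = 4) and a fold of 1.5 (adjusted p = 0.0823). Penk, the precursor of enkephalin peptides, measured 0.76, 0.48, 0.90 and 0.49 (adjusted p = 0.0823). Igfbp5, a binding protein of insulin-like growth factors, measured 0.61, 0.46, 0.63 and 0.83, where its other probe had the opposite sign. S100a4, a calcium-binding protein of motile leukocytes and fibroblasts, measured 0.61, 0.70, 0.57 and 0.85, and Ccl5, a chemokine of memory and cytotoxic T cells, 0.56, 0.68, 0.32 and 0.52. Tnfsf13b, the B cell survival factor BAFF, measured 0.29, 0.34, 0.32 and 0.40. All 4 strains lay above 0 for each of these genes. The sorting nexin gene Snx3 (0.43 ± 0.10 (SD, n = 4)), the mitotic gene Bod1 (0.41 ± 0.12 (SD, n = 4)) and Ivd, an enzyme of leucine breakdown (0.31 ± 0.024 (SD, n = 4)), complete the higher side together with the red cell gene Bpgm above. Cpxm1, a secreted carboxypeptidase-like protein named after its values were seen, measured 0.77, 0.52, 0.47 and 0.63.

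On the lower side stood Ptprc, which encodes the leukocyte antigen CD45, at -0.32, -0.45, -0.54 and -0.55, with 1 of 3 probes of the opposite sign. Its mean was -0.46 ± 0.11 (SD, n = 4), a 1.38-fold lower signal in PLN (adjusted p = 0.0914). Fndc5, the precursor of irisin, measured -0.46, -0.58, -0.45 and -0.34, and Clec7a, the fungal sugar receptor Dectin-1, -0.35, -0.41, -0.41 and -0.38. Klf2, a transcription factor of resting T cells that maintains homing receptors, measured -0.31, -0.28, -0.42 and -0.62. Creg2, a secreted glycoprotein, was at -0.41 ± 0.12 (SD, n = 4), the actin regulator Gmfg at -0.32 ± 0.082 (SD, n = 4), the kinase inhibitor Pkig at -0.37 ± 0.13 (SD, n = 4), the TGF-beta receptor Tgfbr2 at -0.28 ± 0.061 (SD, n = 4), the adhesion receptor Adgrg3 at -0.36 ± 0.13 (SD, n = 4) and Rps21 of the small ribosomal subunit, with its PLN spot saturated on 1 array, at -0.40 ± 0.11 (SD, n = 4). All 10 were below 0 on 4 of 4 arrays after loess, and all 10 were above 0 with median centring. Klf2, Gmfg and Adgrg3 each had 1 of 2 probes of the opposite sign.

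**Figure D2:**
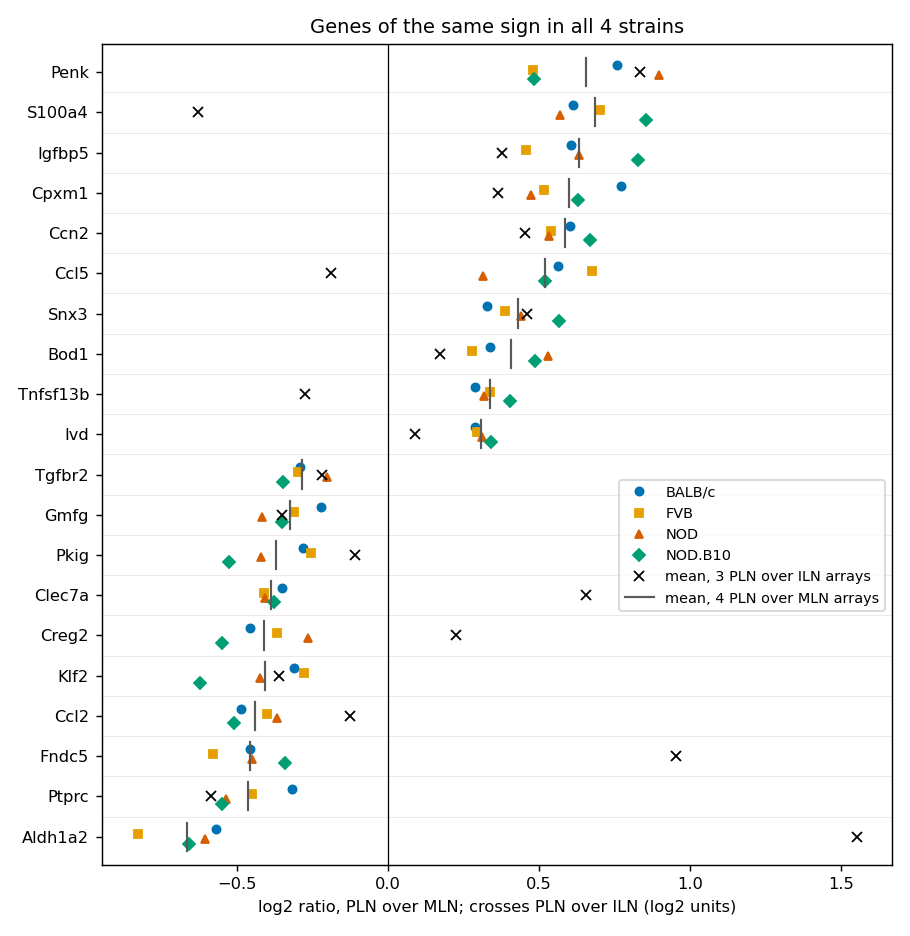
Log2 ratio of PLN over MLN (x axis, log2 units) of 20 genes (y axis) in 4 strains, with the mean as a grey bar and the mean of the 3 PLN over ILN arrays as a cross. Cpxm1, Ccl2 and Aldh1a2 are shown in place of Bpgm, Adgrg3 and Rps21 of the lowest-p genes in the text. The 4 strains lie on the same side of 0 for each gene, and the crosses of S100a4, Ccl5, Tnfsf13b, Clec7a, Creg2, Fndc5 and Aldh1a2 lie on the other side.

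PLN set against ILN gave another picture for some of the 20 genes with the lowest p described above. S100a4 was at -0.63 over ILN, Ccl5 at -0.19 and Tnfsf13b at -0.27 (n = 3). Fndc5 was at 0.95, Clec7a at 0.66 and Creg2 at 0.23. The difference, PLN over MLN less PLN over ILN, was called for these 6 of the 20, against 76 of all genes (0.256%). BALB/c is in the MLN mean and has no ILN array, so PLN does not cancel in it. Over the 3 strains that both comparisons hold, 32 genes were called, and of the 6 S100a4, Tnfsf13b, Fndc5 and Clec7a were still called, while Ccl5 and Creg2 were not. With BALB/c its size was 1.31 for S100a4 (adjusted p = 0.00559), 0.71 for Ccl5 (0.0266), 0.61 for Tnfsf13b (0.0113), -1.41 for Fndc5 (0.00156), -1.04 for Clec7a (0.00358) and -0.64 for Creg2 (0.0347). Neither fit of the difference paired the MLN and ILN arrays of a strain. The 20 genes were chosen on the same MLN arrays, so their share is no independent count. Ccn2, Penk, Snx3 and Igfbp5 were higher than ILN as well, at 0.45, 0.83, 0.46 and 0.38, and Ptprc and Klf2 were lower, at -0.59 and -0.36.

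Stromal genes were split. Of 18 measured genes of fibroblastic stroma 7 were above 0 on all 4 arrays and 1 below, and the list median was 0.10. Ccl19 and Cxcl13, the chemokines of the T and B cell zones, measured 0.58, 0.34, 0.36 and 0.56 and 0.64, 0.12, 0.54 and 0.33. Bst1, a surface enzyme of reticular cells, measured 0.41, 0.24, 0.37 and 0.33 and Fn1, which encodes fibronectin, 0.38, 0.51, 0.55 and 0.47 (adjusted p = 0.0923 and 0.131). These 4 were above 0 in every strain. The matrix genes Dcn, Postn and Col1a1 were below 0 in every strain after loess and above 0 with median centring. Dcn, a collagen-binding proteoglycan, measured -0.22, -0.54, -0.75 and -0.53, Postn -0.59, -0.41, -0.19 and -0.31 and the collagen chain Col1a1, with 1 of 3 probes of the opposite sign, -0.39, -0.14, -0.45 and -0.54. Over ILN, Dcn and Postn stood at 0.56 and 0.55, and the difference was called for both (adjusted p = 0.0247 and 0.0288), for Postn not without BALB/c. Of 16 measured collagen genes 4 were above 0 on all arrays and 1 below, with a median of -0.017 after loess and 0.70 with median centring. Among 14 genes of smooth muscle and pericytes 4 were above 0 on every array and 0 below. Pdgfrb, a receptor of pericytes, measured 0.20, 0.23, 0.21 and 0.27 and Cnn1, a contractile protein, 0.93, 0.089, 0.45 and 0.23.

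Blood endothelial genes had a median of 0.0071, with 3 of 17 above 0 on every array and 3 below. That median lay on either side of 0 depending on the scale. Genes that build peripheral node addressin were above 0 on every array in 6 of 10 and below in 0, with a median of 0.15. Glycam1, a sulphated glycoprotein of high endothelial venules, measured 0.89, 0.31, 0.45 and 0.83, and Fut7, the fucosyltransferase that completes the sugar, 0.43, 0.42, 0.39 and 0.67. The sulphotransferase Chst2, with its MLN spot well above background on 3 arrays, measured 0.29, 0.16, 0.31 and 0.24. All strains were above 0 for these 3 genes (adjusted p = 0.0945, 0.0923 and 0.116). Over ILN, Glycam1 was at -0.15 and Fut7 at -0.36, and the difference was called for Fut7 (adjusted p = 0.0286), though not without BALB/c, and not for Glycam1 (0.129). Madcam1 measured 0.22, -0.028, 0.29 and 0.35 and its regulator Nkx2-3 0.0069, -0.25, -0.68 and -0.0073, and for both the strains lay on either side of 0. The mean of Nkx2-3 was above 0 with median centring. Of 9 measured genes of the mucosal addressin and gut homing, 0 were above 0 on all arrays and 2 below, and the list median was -0.079 after loess and 0.45 with median centring. The integrin chain Itga4, part of the receptor of Madcam1, measured -0.49, -0.13, -0.40 and -0.16 and the gut homing receptor Ccr9 -0.21, -0.14, -0.67 and -0.11, both above 0 with median centring. The median of lymphatic endothelial genes, -0.073, turned to 0.30 with median centring. The hyaluronan receptor Lyve1 measured -0.30, -0.38, 0.14 and -0.44, a mean above 0 with median centring, and the scavenger receptor Stab2 -0.059, 0.16, 0.30 and 0.24. In neither did the strains share a sign.

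Genes of retinoic acid included some that differed between both reference nodes. Aldh1a2, which makes retinoic acid in dendritic and stromal cells, measured -0.57, -0.83, -0.61 and -0.66, a mean of -0.66 ± 0.11 (SD, n = 4) (adjusted p = 0.117), which was above 0 with median centring. Its log2 level in MLN was 8.62, 8.85, 8.72 and 8.90 and in PLN 8.05, 8.02, 8.11 and 8.25. Over ILN it stood at 1.55, a difference of -2.22 (adjusted p = 0.00358). Aldh1a1, a related enzyme, measured 1.0, 0.27, 0.94 and 0.34, above 0 in every strain. Cyp26b1, which degrades retinoic acid, measured 0.13, -0.16, -0.081 and 0.18, with a mean of 0.018 that turned below 0 in Agilent's LogRatio, in the deposited values and with array weights. For Cyp26b1 the difference, PLN over MLN less PLN over ILN, was 1.32 (limma, adjusted p = 0.00296). It was also called over the 3 strains that both comparisons hold (adjusted p = 0.0167). In this list of 18 measured genes 2 were above 0 on every array and 4 below.

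**Figure D3:**
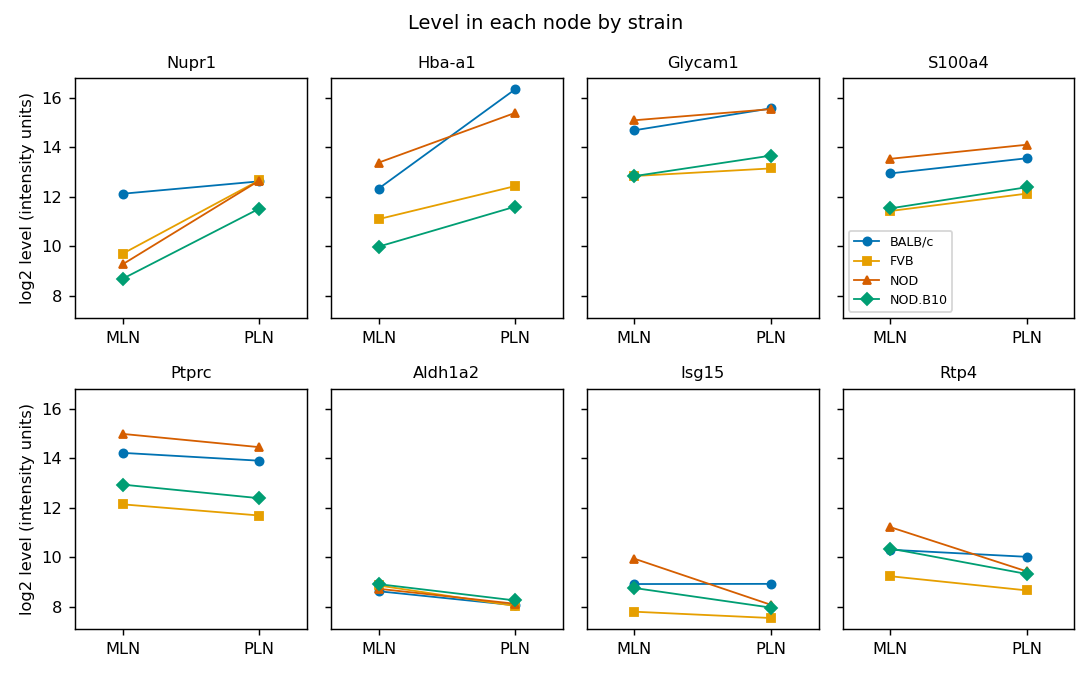
Log2 level after normalization (y axis, log2 of intensity units) of 8 genes in MLN and PLN, with 1 line per strain. The Nupr1 line of BALB/c starts high in MLN, Hba-a1 climbs in every strain, Aldh1a2 lies lower in PLN in all 4 strains, and Isg15 drops steeply in NOD and is flat in BALB/c.

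Hox genes keep a record of position along the body axis. Hoxc9, a gene of the hind trunk, was well above background in MLN on 4 arrays and in PLN on 0. Its measured ratios were -0.80, -0.37, -0.72 and -0.14. As the mean over arrays it was 1.42-fold lower in PLN (adjusted p = 0.131). A bound was sought from its own PLN level or the dimmest level still well above background, whichever is higher. As its own value was higher on all 4 arrays, the bound equals the fold of the measured ratios and is no minimum. Of 10 measured posterior Hox genes 0 were above 0 on all arrays and 5 below. Hoxa4, of the anterior group, measured 0.33, 0.22, 0.41 and 0.46, with the spot of the probe given here well above background in PLN on 4 arrays and in MLN on 0 (adjusted p = 0.105). Of 17 anterior Hox genes 5 were above 0 on every array and 5 below. Hoxd4, the lowest of these, measured -0.22, -0.15, -0.12 and -0.53 and was above 0 with median centring.

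Genes induced by type I interferon, the antiviral cytokine, were below 0 on all 4 arrays in 11 of 26 measured members and above in 0. An unadjusted p under 0.05 with a lower mean was reached by 15 of 26. The list median by strain was -0.093, -0.088, -0.64 and -0.46, and with median centring the median over arrays was 0.24, the other sign. The NOD array was the lowest for 24 of the 26 genes. Rtp4, a chaperone of receptors induced by interferon, measured -0.29, -0.57, -1.79 and -1.03, a mean of -0.92 ± 0.65 (SD, n = 4) (adjusted p = 0.133). Irf7, the transcription factor that amplifies the response, measured -0.24, -0.29, -0.57 and -0.59 and Bst2, which tethers viruses to the cell surface, -0.14, -0.49, -0.61 and -0.29. Isg15, a ubiquitin-like protein, measured 0.0068, -0.26, -1.86 and -0.79, and Ifit1, which binds foreign RNA, -0.23, -0.13, -1.57 and -0.58. With median centring the means of Rtp4, Bst2 and Isg15 were above 0. Genes of this response are known to carry an interferon-stimulated response element, bound by the factor ISGF3, near their start. The letters GAAA, repeated after 2 bases of any kind (NN) and on either strand, lay in 3.44% of 32851 RefSeq promoters of 300 bases (assembly GRCm38.p6). By gene, 1079 of 27025 held it in a promoter (3.99%), and 11 of 19 listed type I interferon genes with an entry. Of the listed interferon gamma genes with an entry 8 of 10 held it, so the letters are not particular to the type I list. The last 150 bases before the start are shown for 3 genes of the type I list that hold it, 5′ to 3′ along the gene, with all matches in capitals (overlapping matches run together). Isg15 lies on the minus strand at chr4:156200819-156200968, Bst2 on the minus strand at chr8:71537473-71537622 and Ifit1 on the plus strand at chr19:34640739-34640888.
Isg15: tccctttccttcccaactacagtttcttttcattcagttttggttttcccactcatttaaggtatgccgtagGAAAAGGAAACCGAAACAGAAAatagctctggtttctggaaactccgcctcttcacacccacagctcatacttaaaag
Bst2: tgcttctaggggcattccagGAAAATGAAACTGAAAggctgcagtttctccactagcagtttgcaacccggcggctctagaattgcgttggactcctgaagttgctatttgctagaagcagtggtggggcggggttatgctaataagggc
Ifit1: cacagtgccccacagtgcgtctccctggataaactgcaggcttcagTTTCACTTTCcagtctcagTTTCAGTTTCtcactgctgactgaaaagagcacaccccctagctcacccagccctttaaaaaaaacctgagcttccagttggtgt
These windows hold 3 matches for Isg15, 2 for Bst2 and 2 for Ifit1. A match describes the letters and shows no binding, and the 3 genes differed in their ratios, with NOD at -1.86 for Isg15, -0.61 for Bst2 and -1.57 for Ifit1.

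Genes of the interferon gamma response leaned the same way, with 6 of 15 measured below 0 on every array and 0 above, a median of -0.15 after loess and of 0.76 with median centring. The GTPases Iigp1 and Gbp3, which attack vacuoles of microbes, measured -0.20, -0.43, -0.46 and -0.52 and -0.34, -0.18, -0.47 and -0.49. Both means were above 0 with median centring. MHC class I and antigen processing genes were below 0 on every array in 3 of 14 and above in 0. Psme2, a subunit of the proteasome activator, measured -0.19, -0.0073, -0.50 and -0.21 and was above 0 with median centring. MHC class II genes had a median of 0.056, with 1 of 12 above 0 on every array and 2 below.

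**Figure D4:**
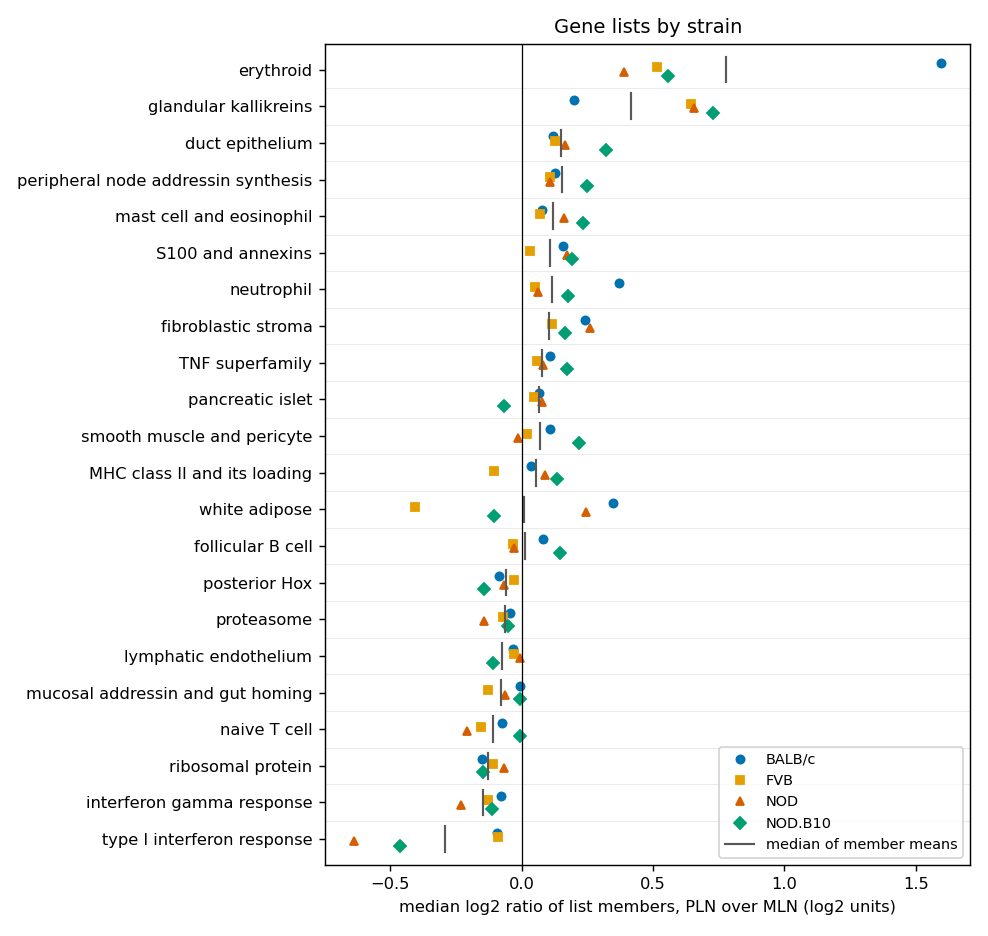
Median log2 ratio of PLN over MLN (x axis, log2 units) of 22 gene lists (y axis) by strain, with the median of member means as a grey bar. The erythroid median is highest in BALB/c at 1.60, and type I interferon genes are lowest in NOD at -0.64.

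Lymphocyte genes differed by small amounts. Of 19 measured genes of naive T cells 7 were below 0 on every array and 0 above, and the median was -0.11 after loess and 0.86 with median centring. Cd6, a T cell adhesion receptor with 1 of 2 probes of the opposite sign, measured -0.15, -0.20, -0.26 and -0.33, with a mean above 0 under median centring. Follicular B cell genes had a median of 0.014, below 0 in Agilent's LogRatio and the deposited values, with 3 of 15 above 0 on every array and 2 below. Cr2, a complement receptor of B cells, measured 0.22, 0.086, 0.16 and 0.35 with 1 of 2 probes of the opposite sign, and Cd79b, a chain of the antigen receptor, -0.18, -0.31, -0.22 and -0.20, above 0 with median centring. Pdcd1, the inhibitory receptor PD-1, measured 0.13, 0.22, 0.31 and 0.34. Of 16 genes of activated and regulatory T cells 5 were above 0 on every array and 1 below. Tnfrsf17, a receptor of plasma cells, measured -0.32, 0.016, -0.93 and -0.29, and its strains did not share a sign. In 12 plasma cell genes 3 were above 0 on every array and 2 below, and Fkbp11, a folding enzyme of secretory cells that the pancreas also holds, was the highest at 0.44, 1.17, 2.11 and 0.60, with 1 of 2 probes of the opposite sign.

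The TNF superfamily, ligands and receptors that organise lymphoid tissue and lymphocyte survival, had 10 of 24 measured members above 0 on every array and 0 below. Its median was 0.080. Besides Tnfsf13b, the ligand Tnfsf14, which acts on stroma and T cells, measured 0.15, 0.38, 0.31 and 0.42, and Cd40, the receptor for T cell help, 0.22, 0.066, 0.19 and 0.31. Of 28 chemokine genes 5 were above 0 on every array and 3 below. Ccl2, which recruits monocytes, measured -0.48, -0.40, -0.37 and -0.51 and was above 0 with median centring (adjusted p = 0.0923). In 19 S100 and annexin genes 6 were above 0 on every array and 1 below, and Anxa5, which binds phosphatidylserine, measured 0.35, 0.20, 0.54 and 0.69 (adjusted p = 0.108).

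Macrophage and monocyte genes had a median of 0.0056, below 0 in Agilent's LogRatio and the deposited values, with 2 of 21 above 0 on every array and 3 below. Marco, a scavenger receptor of sinus macrophages, measured -0.58, -0.16, -0.32 and -0.18, and was above 0 with median centring. Over ILN it was at 1.76, a difference of -2.07 (adjusted p = 0.00110). Csf1r, the growth factor receptor of macrophages with 1 of 3 probes of the opposite sign, measured 0.11, 0.039, 0.29 and 0.43. Hmox1, which breaks down haem, measured 0.20, 0.61, 0.59 and 0.61, lowest in BALB/c where the haemoglobin ratio was highest. Among 15 genes of haem and iron handling 6 were above 0 on every array and 3 below.

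Of 30 ribosomal protein genes 14 were below 0 on every array and 2 above, and the list median by strain was -0.15, -0.11, -0.066 and -0.15, -0.13 over the member means. Among the 21 without a saturated spot on any of the 4 arrays, 7 were below and 2 above, and with median centring the list median was 1.12. Rpl4 of the large subunit measured 0.063, 0.14, 0.31 and 0.14, and Rps24, with its PLN spot saturated on 2 arrays, -0.35, -0.33, -0.30 and -0.29, which was above 0 with median centring. Proteasome genes were below 0 on every array in 8 of 20 and above in 1, with a median of -0.062 after loess and of 0.95 with median centring. The core subunits Psma7 and Psma5 measured -0.12, -0.27, -0.21 and -0.28 and -0.19, -0.088, -0.35 and -0.28. Of 26 genes of oxidative phosphorylation 4 were above 0 on every array and 6 below, with Cycs, the cytochrome of the electron chain, at -0.19, -0.20, -0.38 and -0.31 and the oxidase subunit Cox5a at -0.26, -0.10, -0.30 and -0.56. These 4 means were above 0 with median centring. Glycolysis and hypoxia genes were above 0 on every array in 5 of 20 and below in 0, with Vegfa, a growth factor of vessels, at 0.32, 0.11, 0.40 and 0.46 and the glucose transporter Slc2a1 at 0.28, 0.43, 0.14 and 0.21.

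Stress and cell cycle genes lay on both sides of 0. Heat shock genes were above 0 on every array in 3 of 14 and below in 1, with the small chaperone Cryab at 0.24, 0.19, 0.33 and 0.45 and Hsp90aa1 at -0.31, -0.35, -0.20 and -0.48. In the unfolded protein response 1 of 20 was above and 4 were below, with the disulphide isomerase Pdia3 at -0.26, -0.18, -0.43 and -0.22 and the ubiquitin ligase Syvn1 at -0.33, -0.092, -0.23 and -0.42. The immediate early genes Myc and Nr4a1 measured -0.31, -0.17, -0.18 and -0.22, with 1 of 3 probes of Myc of the opposite sign, and 0.067, 0.35, 0.42 and 0.022. Hsp90aa1, Pdia3, Syvn1 and Myc had means above 0 with median centring. Genes of S phase were below 0 on every array in 4 of 18 and above in 1, and those of G2 and M in 1 and 1 of 18. Both medians, -0.037 and -0.046 after loess, turned above 0 with median centring, to 0.80 and 0.44. The clock gene Tef measured 0.10, 0.079, 0.31 and 0.63, with 1 of 3 probes of the opposite sign.

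Genes of other tissue that a dissected node could hold were also measured. White fat genes had medians of 0.35, -0.41, 0.25 and -0.11, with 0 of 21 above 0 on every array and 1 below. Cfd, which fat cells secrete, measured 0.29, -1.23, 0.33 and -0.42 and Thrsp, a regulator of fat synthesis, 0.85, -0.41, 0.87 and -0.079. The FVB array was the lowest for both, BALB/c and NOD were above 0, and the mean of Cfd, below 0 after loess, was above 0 with median centring. Gut epithelium genes were above 0 on every array in 2 of 13 and below in 2. Krt20, a keratin of surface epithelium, measured 0.13, 0.13, 0.069 and 0.43 and Apoa4, an apolipoprotein of the small intestine, -1.27, 0.0055, -0.33 and 0.35, with a mean above 0 under median centring. Alb, the albumin gene of the liver, measured -1.46, -0.043, 0.19 and -0.031 and like Apoa4 was far below 0 in BALB/c alone. Its spot was well above background on 3 arrays for PLN and on 2 for MLN. Trf, the iron carrier transferrin, was at 0.23, 0.25, 0.50 and 0.44. Skeletal muscle genes had a median of -0.012, with 0 of 13 above 0 on every array and 1 below, and neural genes of 0.047, which turned to -0.058 with median centring, with 2 of 13 above and 3 below. Msln, a surface protein of mesothelium, the lining of the body cavity, measured 0.14, 0.20, 0.71 and 0.55. Raly, an RNA-binding protein among the 10 lowest named genes, measured -0.48, -1.32, -0.30 and -0.71 with FVB apart from the others, and was above 0 with median centring.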

How the data were processed

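RNA of 7 pairs of node pools was hybridised to 2-colour Agilent mouse arrays, and the 4 with PLN (Cy5) and MLN (Cy3) are reported here. Per the file headers, Agilent Feature Extraction 8.5.1.1 gave the deposited spot intensity values, their log10 ratio (LogRatio) and flags for other properties of a spot. The deposited table of log2 ratios equals the processed red over green signal less a constant per array, whose origin no label or header gives. From the mean intensity and local background, limma 3.58.1 in R 4.3.3 applied normexp with an offset of 50 and loess within each array. Control spots and outlier flags were left out. A probe was kept where PLN or its partner node stood well above background on 3 or more of the 7 arrays, 35796 of 41174 (86.9%). The probe with the highest mean signal stood for a gene, and probes of the opposite sign are stated. Names came from RefSeq accessions (22206 probes) or the array's descriptions (2046), and 16922 probes had none.

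All 7 arrays were fitted together with 1 mean per comparison, and p-values were adjusted (Benjamini-Hochberg) over 29712 genes and unnamed probes, with a threshold of 0.05. The fit was run on simulated data with 200 changed genes, and the outcome is not given here. Those data held independent noise of the fitted spread, with no dye, saturation, scanner or strain effect. The members and the 62 gene lists were chosen with earlier results of these data known. Genes were named for the highest and lowest means of 1 sign, the lowest p outside the acinar list, the ends of each list and the spread between strains, besides those said to be chosen later. Alternatives changed the background correction, scaling, filter, probe choice, weights, scanner, replicate block and arrays included.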

Additional observations from a re-analysis of the deposited data

Results flagged for a closer look

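Among 186 sets of 4 values, 9 held an array far from the other 3, where chance gives about 1 in 20 (9.3). BALB/c was the far array for the kallikrein list median (0.20), the erythroid list median (1.60), Alas2 (2.23), Hmox1 (0.20) and Alb (-1.46). NOD.B10 was the far array for the list medians of peripheral node addressin synthesis (0.25) and of chemokine ligands (-0.10), and for Fut7 (0.67) and Krt20 (0.43).

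For 14 named genes the difference, PLN over MLN less PLN over ILN on the log2 scale, was called by limma. BALB/c enters the MLN mean alone, so PLN does not cancel in this difference. It was above 0 for Ccl5 (0.71), S100a4 (1.31), Tnfsf13b (0.61), Fut7 (0.84) and Cyp26b1 (1.32). It was below 0 for Fndc5 (-1.41), Creg2 (-0.64), Clec7a (-1.04), Dcn (-1.07), Postn (-0.93), Lyve1 (-1.35), Nkx2-3 (-1.30), Aldh1a2 (-2.22) and Marco (-2.07). Over FVB, NOD and NOD.B10 alone, a choice made after seeing the data, 8 of the 14 were called and all 14 had the same sign. Ccl5, Creg2, Postn, Lyve1, Fut7 and Nkx2-3 were the 6 not called. Neither fit of the difference paired the MLN and ILN arrays of a strain.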

How the results depend on the processing

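The count of 0 called genes was also found with normexp without an offset, without a filter on dim probes, with Agilent's LogRatio, the deposited values, median centring, the mean of all probes of a gene, an intensity trend with a robust prior, the scanner as a term, the 4 arrays alone and without saturated spots, the last of which was chosen after seeing the data. The count was 37 without background correction, 1 under a stricter filter on dim probes and 191 with array weights. It was 20 within the scanner that read the MLN arrays of FVB and NOD.B10. Leaving out 1 array at a time gave 0 to 46 called genes, with 46 when BALB/c was left out and 9 when it was the ILN array of FVB. MLN and ILN arrays of FVB, NOD and NOD.B10 were paired by the strain in their labels for a replicate block, with an estimated correlation of 0.132. That block gave 0 called genes for PLN over MLN. The differences between the MLN and ILN comparisons were not refitted with it. The cause of the changed counts was not tested.

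Median centring in place of loess turned the mean of 43 named genes from below to above 0. Their means became Adgrg3 0.37, Aldh1a2 0.12, Apoa4 0.0071, Bst2 0.71, Ccl2 0.39, Ccr9 0.45, Cd6 0.92, Cd79b 0.99, Cfd 0.92, Clec7a 0.52, Col1a1 0.61, Cox5a 0.87, Creg2 0.0054, Cycs 0.81, Dcn 0.69, Fndc5 0.27, Gbp3 0.58, Gmfg 0.81, Hoxd4 0.15, Hsp90aa1 0.85, Iigp1 0.58, Isg15 0.080, Itga4 0.29, Klf2 0.78, Lyve1 0.71, Marco 0.97, Mbnl1 0.45, Myc 0.76, Nkx2-3 0.13, Pdia3 0.78, Pkig 0.70, Postn 0.58, Psma5 0.90, Psma7 0.91, Psme2 1.03, Ptprc 0.72, Raly 0.33, Rplp1 0.23, Rps21 0.91, Rps24 0.98, Rtp4 0.058, Syvn1 0.90 and Tgfbr2 0.80. This choice moved the brightest genes most, as stated beside the arrays. The mean of Cyp26b1 became -0.073 in Agilent's LogRatio, -0.11 in the deposited values and -0.025 with array weights, and it ran from -0.035 to 0.077 as 1 array was left out. Apoa4 became 0.18 and Thrsp -0.24 within the scanner that read FVB and NOD.B10. Both were the same with the scanner as a term, where the mean refers to that scanner. Leaving out 1 array at a time, Apoa4 ran from -0.53 to 0.0092, Alb from -0.51 to 0.037 and Cfd from -0.45 to 0.068. Signal over background limits the dim genes.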
